A study of Rattus norvegicus with 4 samples.

Results

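Prostaglandins and leukotrienes are short-lived lipid mediators made from arachidonic acid, and 10 genes of their synthesis and action were followed in retroperitoneal fat of obese and lean rats. The genes were chosen by symbol, as the rows of the array that carry exactly 1 gene symbol and that symbol is among the 10, and all 10 were found among 14506 genes tested. They encode the cyclooxygenases Ptgs1 and Ptgs2, the terminal synthases Ptges, Ptgds and Hpgds, the prostaglandin E2 receptors Ptger3 and Ptger4, and the leukotriene enzymes Alox5 and Ltc4s with the helper protein Alox5ap. Each had a single row, so no choice between rows was needed. The obese group was 2 male rats of the WNIN/Ob strain with the obese phenotype, and the lean group was 2 male rats of the same strain with the lean phenotype. All were 4 months old, untreated and fed stock diet, and each gave 1 sample on 1 Affymetrix Rat Gene ST array. Retroperitoneal fat is a visceral white depot. The labels give the phenotype of each rat but not its genotype, and with 2 rats per group the number of arrays limits the precision.

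Prostaglandin synthesis starts when a phospholipase releases arachidonic acid from membranes, and a cyclooxygenase then turns it into the unstable prostaglandin H2, from which terminal synthases make prostaglandin E2, prostaglandin D2, thromboxane or prostacyclin. Leukotriene synthesis uses the same fatty acid but begins with 5-lipoxygenase, which works with the membrane protein FLAP. In fat, prostaglandin E2 acting on the receptor EP3 of adipocytes restrains lipolysis, and macrophages and mast cells are further sources and targets of these mediators.

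The promoter windows of the PGE2 receptor genes Ptger4, Ptger2 and Ptger3 are shown first, because these receptors had unlike values in the comparison, with that of Tbxas1, the thromboxane synthase gene, which was the one gene of the pathway that passed the test. Each window runs 5′ to 3′ along the gene, from 250 bases before its RefSeq start to 50 bases after it, on build GRCr8. Capitals mark every match, on either strand, to TATAAA (the core promoter element called the TATA box), TGACG (the core of a cyclic AMP response element), TGANTCA (AP-1), AGGAAG (core of the PU.1 site, PU.1 being a factor of myeloid cells) or TTNNGNAA (C/EBP).
Ptger4, chr2:56073473-56073772, strand -: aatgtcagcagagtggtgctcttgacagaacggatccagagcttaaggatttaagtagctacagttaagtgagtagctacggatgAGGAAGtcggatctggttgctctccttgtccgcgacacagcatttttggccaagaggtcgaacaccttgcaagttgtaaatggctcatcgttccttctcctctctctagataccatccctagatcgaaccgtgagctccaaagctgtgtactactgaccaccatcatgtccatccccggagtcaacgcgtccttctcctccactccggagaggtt
Ptger2, chr15:20696796-20697095, strand +: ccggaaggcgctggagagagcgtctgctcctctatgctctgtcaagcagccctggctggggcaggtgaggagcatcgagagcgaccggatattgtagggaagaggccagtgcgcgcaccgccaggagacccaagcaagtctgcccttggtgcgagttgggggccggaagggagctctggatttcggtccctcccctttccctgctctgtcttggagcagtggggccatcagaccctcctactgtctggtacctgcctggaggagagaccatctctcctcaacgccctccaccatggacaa
Ptger3, chr2:249264832-249265131, strand +: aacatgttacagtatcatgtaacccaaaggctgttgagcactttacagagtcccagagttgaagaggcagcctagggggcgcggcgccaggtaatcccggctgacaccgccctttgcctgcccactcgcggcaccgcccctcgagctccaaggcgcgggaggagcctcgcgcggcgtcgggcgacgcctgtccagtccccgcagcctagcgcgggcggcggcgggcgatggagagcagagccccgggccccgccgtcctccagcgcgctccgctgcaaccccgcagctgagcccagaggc
Tbxas1, chr4:68631635-68631934, strand +: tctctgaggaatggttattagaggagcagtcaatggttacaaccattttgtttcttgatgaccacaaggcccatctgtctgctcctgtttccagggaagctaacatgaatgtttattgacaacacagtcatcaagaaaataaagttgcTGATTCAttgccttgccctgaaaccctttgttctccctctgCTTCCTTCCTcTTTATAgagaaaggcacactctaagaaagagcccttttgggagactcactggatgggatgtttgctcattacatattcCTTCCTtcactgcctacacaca
The Ptger4 window held 1 match, the PU.1 core at bases 86 to 91 counted from its 5′ end. The 50 bases after the RefSeq start of Ptger4 begin with ATG, the letters of a start codon. That start may therefore be the start of the coding sequence, and the window may not cover the promoter. The Ptger2 and Ptger3 windows held no match to any of these letters. The Tbxas1 window held the PU.1 core at 3 places on the opposite strand, of which the pair at bases 190 to 195 and 194 to 199 overlap, the AP-1 letters at bases 149 to 155, and a TATA box on the opposite strand at bases 201 to 206. Of 27457 RefSeq promoter windows of this length, 34.3% held the PU.1 core, 40.8% the C/EBP letters, 22.0% the cyclic AMP element core, 14.3% the TATA box and 7.33% the AP-1 letters. Base composition differed as well, since GC content was 50.3% for Ptger4, 62.3% for Ptger2, 69.7% for Ptger3 and 43.0% for Tbxas1, where the median window had 52.3%. Of the 10 members 8 had a window in the RefSeq table, and Hpgds and Alox5ap were not matched. The PU.1 core was also in the windows of Ptgs1, Ptgs2, Ptgds and Ltc4s, but not in those of Ptges and Alox5. Those 4 genes had differences of 0.12, -0.25, -0.03 and -0.02, and a link between the core and the values was not tested. A match is a string of letters and not a measured binding site.

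Values are log2 intensities, and a difference is obese minus lean on that scale. Over all genes tested limma called 0.841% at an adjusted p under 0.05 (0.772% higher and 0.0689% lower in obese rats), and 15.3% had an unadjusted p under 0.05 (9.93% higher and 5.33% lower). The groups did not overlap in 47.7% of genes, the obese pair being the higher in 26.4% and the lower in 21.3%. The arrays were not alike. Lean rat 1 stood apart in skeletal muscle genes, with a summed intensity of 15 muscle genes of 50805, against 651 to 926 on the other arrays. Lean rat 2 had a narrower spread of signal (interquartile range 2.24, against 2.63 to 2.77) and a higher floor. As a gauge of that floor, 201 rows of olfactory and vomeronasal receptor genes had their 95th percentile at 4.41 and 4.49 in the obese rats and at 4.67 and 5.23 in lean rats 1 and 2. The label of fat was borne out by adipocyte genes, since Adipoq, the adiponectin gene, was at 11.99 and 12.29 in obese rats and at 12.11 and 11.86 in lean rats. Values with each rat left out are given below where they turn a sign, end or make a call, or move a difference by over 1.5 times.

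None of the 10 members passed at an adjusted p under 0.05 by limma, and 2 had an unadjusted p under 0.05, Ptger4 with a positive and Hpgds with a negative difference. The median difference of the 10 was -0.02, beside 0.00047 over all genes, and their median absolute difference was 0.20, beside 0.29. The obese pair was wholly above the lean pair for 2 members (20.0%, beside 26.4% of all genes). It was wholly below for 3 (30.0%, beside 21.3%). The groups overlapped for the other 5. At an unadjusted p under 0.05 the members' share was 20.0%, near the 15.3% of all genes. The members' median was -0.21 without lean rat 1 and 0.15 without lean rat 2, so its sign rests on which lean rat is used.

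**Figure D1:**
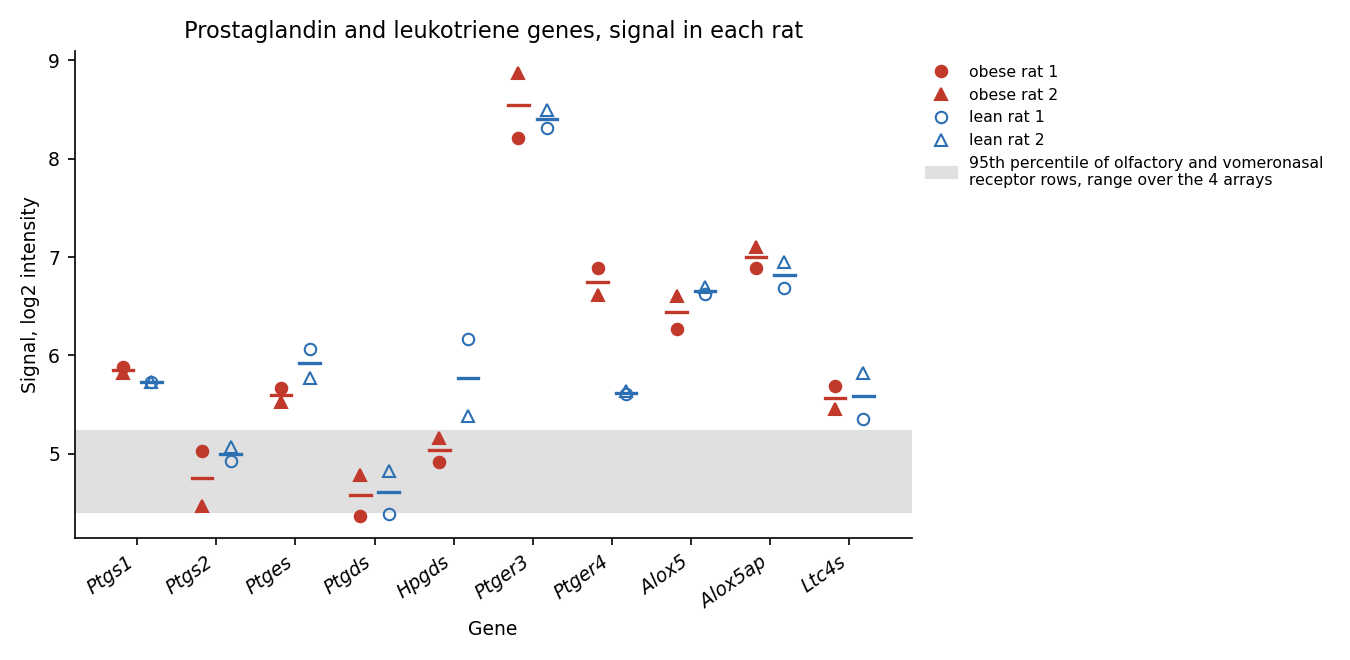
Signal of each of the 10 genes in each rat (y axis, log2 intensity), with obese rats as filled red and lean rats as open blue symbols, short bars for group means (n = 2), and a grey band for the 95th percentile of olfactory and vomeronasal receptor rows over the arrays (4.41 to 5.23). Ptger4 has obese rats at 6.89 and 6.62 above lean rats at 5.61 and 5.64, Hpgds has the obese rats below the lean rats, and Ptgs2 and Ptgds lie within or near the band.

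Ptger4 encodes EP4, a prostaglandin E2 receptor that raises cyclic AMP. It was at 6.89 and 6.62 in obese rats 1 and 2, against 5.61 and 5.64 in lean rats 1 and 2. The lean rats were almost equal, and both obese rats lay well above them. The difference was 1.13 ± 0.25 (SE, n = 2 per group), or 2.19-fold, with a 95% interval of 0.55 to 1.71. Its limma adjusted p was 0.0995, and 95.1% of all genes had a smaller absolute difference. With a rat left out the difference stayed between 0.99 and 1.26, and over 13 alternatives the adjusted p ran from 0.0508 (without lean rat 1) to 0.569 (without obese rat 1), so it did not pass under any of them.

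Ptger3 encodes EP3, the prostaglandin E2 receptor that lowers cyclic AMP and holds back lipolysis in adipocytes. It was at 8.21 and 8.87 in obese rats, against 8.31 and 8.49 in lean rats. One obese rat lay below both lean rats and the other above both, so the groups overlapped. The difference was 0.14 ± 0.33 (SE, n = 2 per group), with an interval of -0.63 to 0.91 and an adjusted p of 0.875. Leaving out obese rat 2 gave -0.19, and leaving out obese rat 1 gave 0.47. The mean signal of this row exceeded that of 92.3% of genes, and that of the Ptger4 row 57.3%, but rows are not compared in level because probes differ in brightness.

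The other receptors of the pathway were read from the same fit. Ptger2 encodes EP2, which like EP4 raises cyclic AMP, and it was at 6.60 and 6.02 in obese rats, against 5.17 and 4.83 in lean rats. The groups did not overlap, and the difference of 1.31 ± 0.28 had an adjusted p of 0.094. Leaving out obese rat 2 made it pass (1.61, adjusted p = 0.0235), as did leaving out lean rat 1 (1.48, adjusted p = 0.0437). The lean value of 4.83 in lean rat 2 was under that array's floor of 5.23, so the size of the difference is uncertain. A second Ptger2 row held identical values and is no further evidence. Ptger1 encodes EP1, the calcium-linked receptor, and was at 5.28 and 4.98 in obese rats, against 5.41 and 6.26 in lean rats, a difference of -0.71 ± 0.32 (adjusted p = 0.342). It passed without lean rat 1 (-1.13, adjusted p = 0.0442) and was at -0.28 without lean rat 2.

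Of the 6 further prostanoid receptor genes measured, none passed at an adjusted p under 0.05. An unadjusted p under 0.05 was found for 2 (33.3%, beside 15.3% of all genes), Ptger2 and Ptgfr, both with positive differences. Ptgfr, the prostaglandin F receptor gene, was at 5.753 and 6.004 in obese rats, against 5.27 and 4.93 in lean rats, with a difference of 0.78 ± 0.25 and an adjusted p of 0.222, and the value of lean rat 2 was under the floor. Ptgir, the prostacyclin receptor gene, was at 0.50 ± 0.26, or 0.33 without obese rat 1. Tbxa2r, the thromboxane receptor gene, was at -0.46 ± 0.30, and rested on the lean rats, with -0.086 once lean rat 2 was omitted and -0.84 once lean rat 1 was. Ptgdr2, a prostaglandin D2 receptor gene, was at 0.15 ± 0.24 (from -0.064 to 0.37 with single rats omitted). The one row of Ptgdr, the other prostaglandin D2 receptor gene, is shared with Ptgdrl1, so it was not tested.

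**Figure D2:**
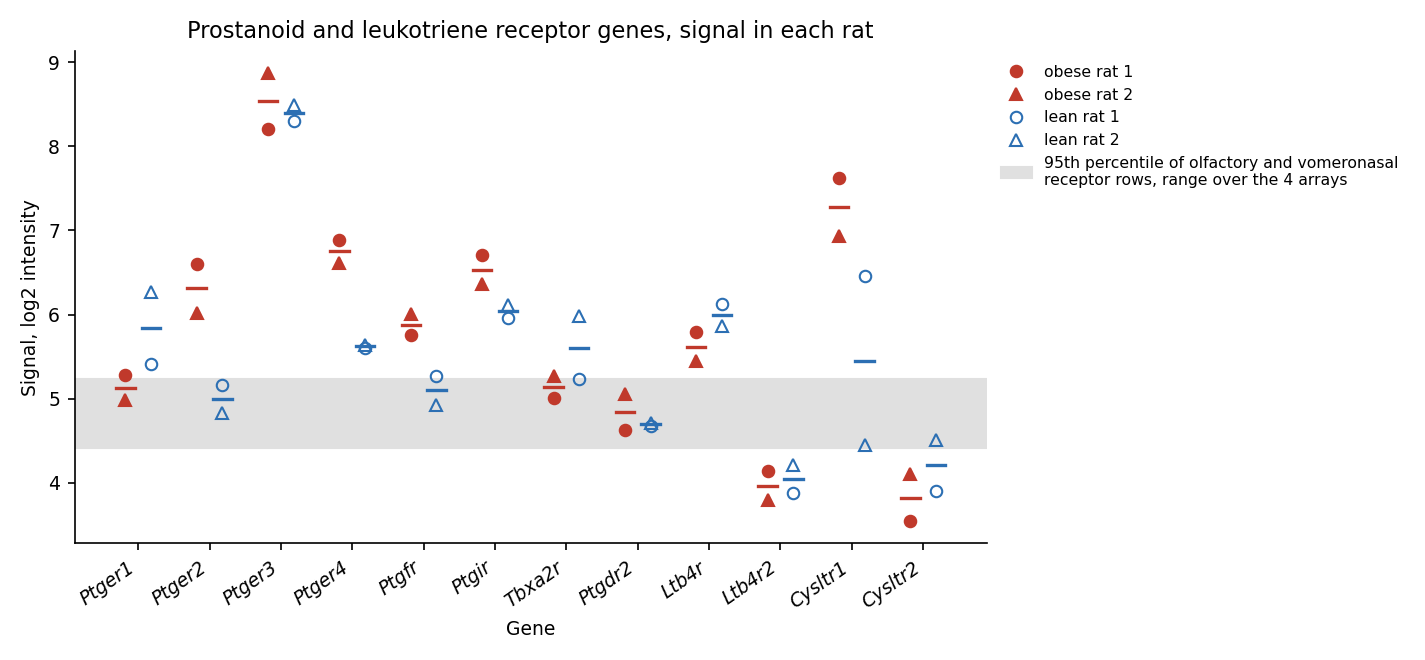
Signal of prostanoid and leukotriene receptor genes in each rat (y axis, log2 intensity), drawn as for the members, with obese rats filled red and lean rats open blue, bars for group means (n = 2) and the grey band for the floor. Ptger2, Ptger4, Ptgfr, Ptgir and Cysltr1 have the obese pair above the lean pair, Ptger1 and Ltb4r have them below, and Ptger3 overlaps.

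Ptgs1 encodes the constitutive cyclooxygenase. It was at 5.88 and 5.82 in obese rats, against 5.73 and 5.74 in lean rats. The groups did not overlap but lay close together, with a difference of 0.12 ± 0.23 (SE, n = 2 per group) and an interval of -0.42 to 0.66 (adjusted p = 0.848). Ptgs2 encodes the inducible cyclooxygenase. It was at 5.03 and 4.47 in obese rats, against 4.93 and 5.07 in lean rats. Obese rat 2 was the lowest, obese rat 1 lay between the lean rats, and signal was above the floor on 2 of the 4 arrays. The difference was -0.25 ± 0.26 with an interval of -0.85 to 0.36 (adjusted p = 0.698), and it was 0.034 once obese rat 2 was omitted and -0.53 once obese rat 1 was. No difference in Ptgs2 was detected. The values of obese rat 2 and lean rat 2 were under their arrays' floors, so the size of the difference is uncertain.

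Ptges encodes the inducible microsomal prostaglandin E synthase. It was at 5.67 and 5.52 in obese rats, against 6.07 and 5.77 in lean rats. Both obese rats were below both lean rats, by a mean of 0.32, and the difference of -0.32 ± 0.25 (SE, n = 2 per group) had an adjusted p of 0.570 and an interval of -0.89 to 0.24. Omitting single rats gave -0.47 to -0.17, the smaller size being that without lean rat 1. The other prostaglandin E synthase genes were near 0, with Ptges2 at 0.18 ± 0.23 and Ptges3, also a co-chaperone of Hsp90, at 0.18 ± 0.33. Ptges3 was at -0.05 without obese rat 1 and at -0.13 without lean rat 2.

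Hpgds and Ptgds encode unrelated enzymes that both make prostaglandin D2. Hpgds, the haematopoietic form of mast cells and some other blood-derived cells, was at 4.92 and 5.16 in obese rats, against 6.17 and 5.38 in lean rats. Both obese rats were below both lean rats, and the lean rats stood 0.79 apart. The difference was -0.74 ± 0.31 (SE, n = 2 per group), with an interval of -1.44 to -0.03, an unadjusted p of 0.0424 and a limma adjusted p of 0.311. It was -0.34 without lean rat 1 and -1.13 without lean rat 2, with an adjusted p of 0.0538 at its lowest. Ptgds, the lipocalin form, was at 4.37 and 4.78 in obese rats, against 4.39 and 4.83 in lean rats. Each group held a low and a high rat, signal was above the floor on 1 array, and the difference was -0.03 ± 0.26 with an interval of -0.64 to 0.58. It was 0.17 without obese rat 1 and 0.19 without lean rat 2.

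Mast cell markers were read beside Hpgds. All 10 measured mast cell genes had negative differences, with a median of -0.51, beside 0.00047 over all genes, and none passed. The obese pair was wholly below the lean pair for 4 (40.0%, beside 21.3% of all genes). Signal was above the floor on all 4 arrays for 6 of the 10. Their summed intensity was 316 and 459 in obese rats, against 545 and 507 in lean rats. Cpa3, the mast cell carboxypeptidase gene, was at 5.99 and 6.68 in obese rats, against 7.02 and 6.61 in lean rats. The groups overlapped for Cpa3, unlike for Hpgds. Gata2, a transcription factor gene placed on the mast cell list, was at 5.57 and 5.94 in obese rats, against 6.79 and 6.24 in lean rats. It had the most negative difference of the 10, and whether its signal came from mast cells was not tested. The Cpa3 difference ran from -0.82 to -0.13 and the Gata2 difference from -1.03 to -0.49 with single rats omitted. Among the 4 genes without overlap, Mcpt1 was under the floor on all 4 arrays and Fcer1a was above it on 1. Leaving out obese rat 1 brought the mast cell median to -0.12, and leaving out obese rat 2 to -0.79. The part of mast cells in the Hpgds value was not tested. In bulk tissue fewer cells of a type and less RNA per cell cannot be told apart.

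Alox5 encodes 5-lipoxygenase, the first enzyme of leukotriene synthesis. It was at 6.27 and 6.61 in obese rats, against 6.62 and 6.69 in lean rats. Both obese rats lay below both lean rats, obese rat 2 only just. The difference was -0.22 ± 0.27 (SE, n = 2 per group) with an interval of -0.83 to 0.39 and an adjusted p of 0.740. Leaving out obese rat 1 gave -0.05, and leaving out obese rat 2 gave -0.39.

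Alox5ap encodes FLAP, which presents arachidonic acid to 5-lipoxygenase. It was at 6.89 and 7.11 in obese rats, against 6.69 and 6.95 in lean rats. The values of the groups interleaved, and the difference was 0.18 ± 0.27 with an interval of -0.45 to 0.81 and an adjusted p of 0.796. It ran from 0.05 without lean rat 1 to 0.31 without lean rat 2. Ltc4s encodes leukotriene C4 synthase, which joins leukotriene A4 to glutathione. It was at 5.69 and 5.45 in obese rats, against 5.35 and 5.82 in lean rats. Both obese rats lay between the lean rats, and the difference was -0.02 ± 0.26 with an interval of -0.62 to 0.59 and an adjusted p of 0.988. Its sign turned with the animal omitted, since dropping lean rat 1 gave -0.25, dropping lean rat 2 gave 0.22 and dropping obese rat 2 gave 0.10.

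**Figure D3:**
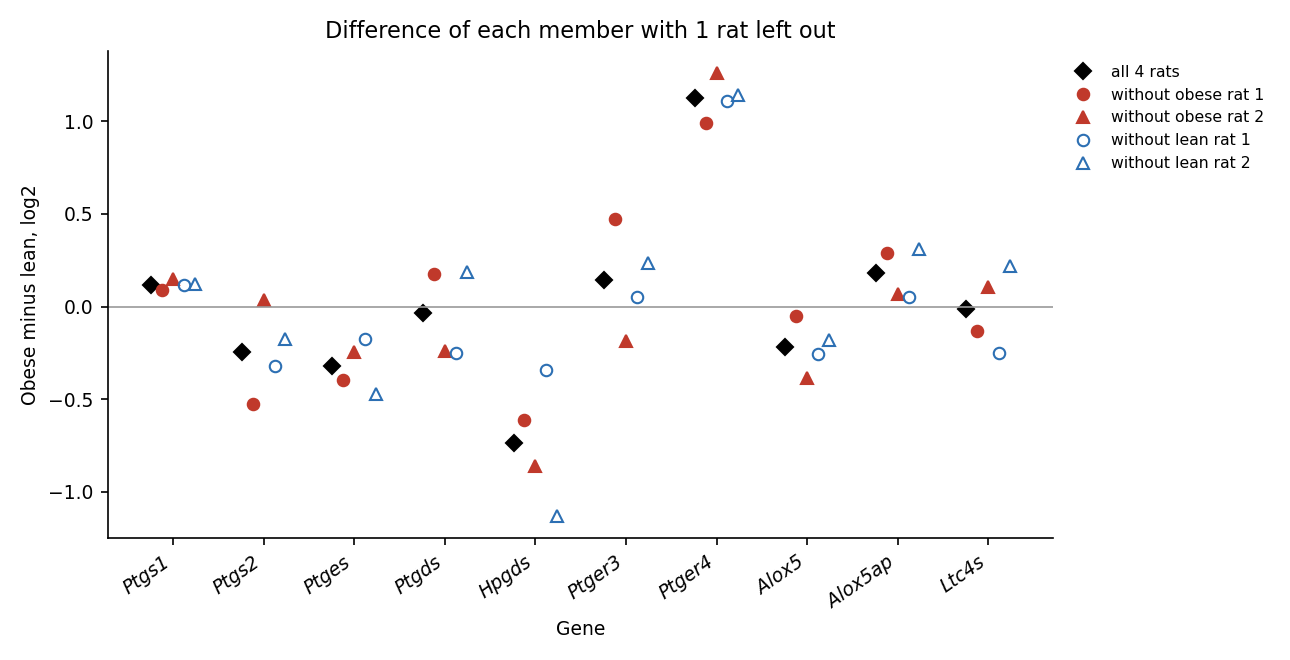
Obese minus lean difference (y axis, log2) of each of the 10 members over all 4 rats (black diamonds) and with 1 rat left out (red for an obese rat, blue for a lean rat). Ptger4 stays between 0.99 and 1.26 and Hpgds between -1.13 and -0.34, while Ptgs2, Ptgds, Ptger3 and Ltc4s cross 0.

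Macrophage genes were measured on the same arrays, since macrophages express Alox5, Alox5ap and Ptgs1. Of 15 macrophage markers, 4 rose (Lyz2, Mpeg1, Itgam and Fcgr1a), none fell and 11 did not pass. Among all genes 0.772% were called higher in obese rats and 0.0689% lower. The macrophage list was centred on 0.93, beside 0.00047 for all genes, both as medians. That centre moved to 0.58 on omitting obese rat 1 and to 1.34 on omitting obese rat 2. The call of Fcgr1a, an antibody receptor gene, was lost with quantile normalization (adjusted p = 0.0552). Their summed intensity was 14566 and 9605 in obese rats, against 4860 and 4589 in lean rats. Itgam, an integrin subunit of myeloid cells, was at 8.63 and 8.05 in obese rats, against 5.92 and 6.17 in lean rats. On these arrays the differences of the 3 leukotriene members lay between -0.22 and 0.18, and that of Ptgs1 was 0.12. The markers differed among themselves, since Cd163, a scavenger receptor gene of resident macrophages, was at -0.05 ± 0.36 (from -0.41 to 0.30 when single animals were omitted) and the complement gene C1qa at 0.27 ± 0.36 (from -0.092 to 0.62). Neutrophil markers had a median of -0.01 over 9 genes (from -0.11 to 0.26 with single rats omitted) and eosinophil markers of -0.11 over 5 (from -0.23 to 0.0071). Of these, 4 neutrophil and 2 eosinophil genes were under the floor on all 4 arrays. The part of any cell type in the members' values was not tested.

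**Figure D4:**
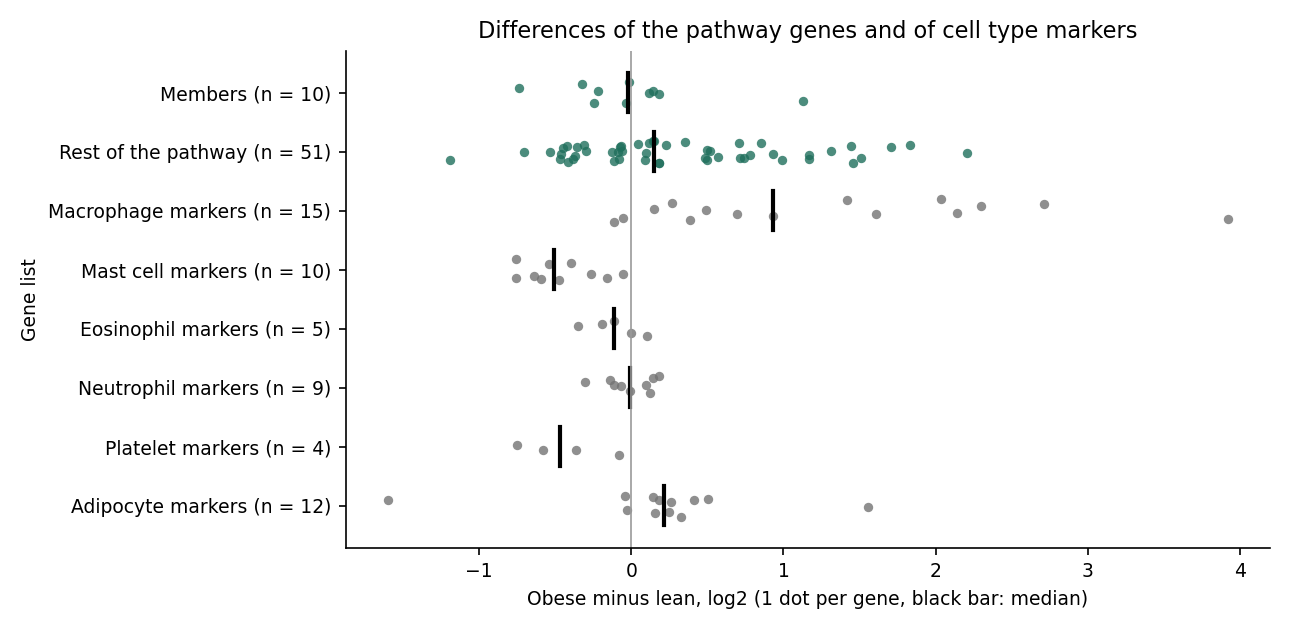
Obese minus lean difference (x axis, log2) of every measured gene of the pathway and of cell type marker lists, 1 dot per gene, with a black bar at each list's median. The median is -0.02 for the 10 members, 0.15 for the rest of the pathway, 0.93 for macrophage markers and -0.51 for mast cell markers.

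The rest of the eicosanoid pathway was followed in 54 genes, of which 51 had a row of their own. Of these, 1 rose, none fell and 50 did not pass, where 0.841% of all genes were called. At an unadjusted p under 0.05 there were 15 with a positive and 0 with a negative difference (29.4%, beside 15.3% of all genes). The obese pair was wholly above the lean pair for 24 genes (47.1%, beside 26.4% of all genes) and wholly below it for 6 (11.8%, beside 21.3%). The median difference was 0.15, and with a rat left out it ran from 0.12 to 0.24. The number that passed was 9 without lean rat 1, 5 without obese rat 2, 4 without obese rat 1 and 2 without lean rat 2. The genes gained are named with their values above (Ptger1 and Ptger2) or below, other than Ptgr2. Ptgr2, a prostaglandin reductase gene, was at 0.93 over all 4 rats, 0.20 without lean rat 2 and 1.66 without lean rat 1.

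The gene that rose was Tbxas1, the thromboxane A synthase gene, which platelets and macrophages express. It was at 7.27 and 7.12 in obese rats, against 5.14 and 4.84 in lean rats. The obese rats were close to each other and about 2.20 above the lean rats, and the value of lean rat 2 was under that array's floor. The difference was 2.20 ± 0.25 (SE, n = 2 per group), or 4.61-fold, with a limma adjusted p of 0.0157, and it passed under all 13 alternatives, with an adjusted p of at most 0.0307. The 4 platelet markers measured had negative differences and none passed. Their median was -0.47, or -0.080 without lean rat 2 and -0.96 without lean rat 1, and their summed intensity was 174 and 216 in obese rats, against 170 and 385 in lean rats. Macrophage markers, given above, had a median of 0.93. The part of either cell type in the Tbxas1 value was not tested. Ptgis, the prostacyclin synthase gene, was at -0.36 ± 0.44, and its sign rested on lean rat 2 (0.37 when left out, against -1.08 when lean rat 1 was left out).

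Among genes of arachidonic acid supply, 13 were measured and none passed. An unadjusted p under 0.05 was found for 4 (30.8%, beside 15.3% of all genes), all with positive differences. Lpcat3, which puts polyunsaturated fatty acids into phospholipids, was at 10.26 and 9.65 in obese rats, against 8.37 and 8.13 in lean rats. Its difference was 1.71 ± 0.34 with an adjusted p of 0.073, and it passed once obese rat 2 (2.01, adjusted p = 0.0156) or lean rat 1 (1.83, adjusted p = 0.0442) was left out. Pla2g2d, a secreted phospholipase A2 gene, was at 8.90 and 8.20 in obese rats, against 7.36 and 7.41 in lean rats, a difference of 1.17 ± 0.33 (adjusted p = 0.181). Mboat7, which attaches arachidonic acid to phosphatidylinositol, was at 0.72 ± 0.27, and Pla2g4a, the cytosolic phospholipase A2 that releases it, at 0.74 ± 0.29 (adjusted p = 0.285). Plaat3, the main phospholipase A2 of mouse adipocytes, was at 0.23 ± 0.29.

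Of the 5 genes of prostaglandin breakdown and transport, none passed. Ptgr1 and Hpgd had an unadjusted p under 0.05 (40.0%, beside 15.3% of all genes), with positive differences. The transporter gene Slco2a1 was the one with a negative difference, at -0.42 (from -0.68 to -0.15 with single rats omitted). The median of the 5 was 0.93, and omitting single rats gave 0.51 (lean rat 2) to 1.475 (lean rat 1). Ptgr1, a reductase that inactivates prostaglandins and leukotriene B4, was at 7.71 and 8.17 in obese rats, against 6.54 and 6.31 in lean rats. Its difference was 1.51 ± 0.30 with an adjusted p of 0.0721, and it passed once obese rat 1 (1.74, adjusted p = 0.039) or lean rat 1 (1.63, adjusted p = 0.0397) was left out. Hpgd, which starts prostaglandin breakdown, was at 4.78 and 6.06 in obese rats, against 4.57 and 3.95 in lean rats. Its difference of 1.16 ± 0.42 (adjusted p = 0.259) rested on obese rat 2, since it was 0.53 without that rat and 1.80 without obese rat 1 (adjusted p = 0.00521), and only the obese rats were above the floor. Aldo-keto reductase genes, some of which reduce prostaglandins, were counted with prostanoid synthesis and not among these 5. Akr1b1, aldose reductase, was at 10.42 and 10.24 in obese rats, against 8.66 and 9.09 in lean rats. Its difference was 1.45 ± 0.32 (adjusted p = 0.0963), or 1.67 without lean rat 2. Akr1c3 was at 0.85 ± 0.27, with lean rat 2 under the floor, and Akr1b7, under the floor on all 4 arrays, at -0.09. Rows of the exporter gene Abcc4 disagreed, at 1.11, 0.98 and 0.14, and the row used, the brightest, gave the last of these values.

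Downstream of 5-lipoxygenase, Lta4h, which makes leukotriene B4 from leukotriene A4, was at 8.43 and 7.87 in obese rats, against 6.96 and 6.45 in lean rats. The groups did not overlap, and the difference was 1.45 ± 0.33 with an adjusted p of 0.107. It passed once obese rat 2 (1.73, adjusted p = 0.0379) or lean rat 1 (1.70, adjusted p = 0.0418) was left out. Mgst2, a membrane enzyme that can also make leukotriene C4, was at 8.13 and 8.43 in obese rats, against 7.66 and 6.93 in lean rats, a difference of 0.99 ± 0.34 (adjusted p = 0.248) that passed without lean rat 1 (1.35, adjusted p = 0.0482) and was 0.62 without lean rat 2. Dpep2, a dipeptidase that trims leukotriene D4, was at 5.57 and 5.40 in obese rats, against 4.49 and 5.06 in lean rats. Both lean values were under their arrays' floors, so the size of the difference (0.71 ± 0.26, and 0.42 without lean rat 1) is uncertain. Cysltr1, a receptor of the cysteinyl leukotrienes, was at 7.63 and 6.93 in obese rats, against 6.46 and 4.44 in lean rats. The lean rats stood 2.01 apart, and the value of lean rat 2 was under that array's floor of 5.23, so the size of the difference is uncertain. The difference of 1.83 ± 0.59 (adjusted p = 0.222) ran from 0.82 without lean rat 2 to 2.84 without lean rat 1 (adjusted p = 0.0278), where that value below the floor is the only lean one, and it passed without obese rat 2 as well (2.18, adjusted p = 0.000636). Ltb4r, the high-affinity leukotriene B4 receptor gene, was at 5.79 and 5.44 in obese rats, against 6.12 and 5.86 in lean rats (-0.37 ± 0.26, and -0.20 without obese rat 2). Alox15, a 12/15-lipoxygenase gene, was at 8.04 and 6.17 in obese rats, against 7.98 and 8.61 in lean rats. Its difference of -1.19 ± 0.57 rested on obese rat 2, since it was -0.25 without that rat and -2.13 without obese rat 1 (adjusted p = 0.00584).

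**Figure D5:**
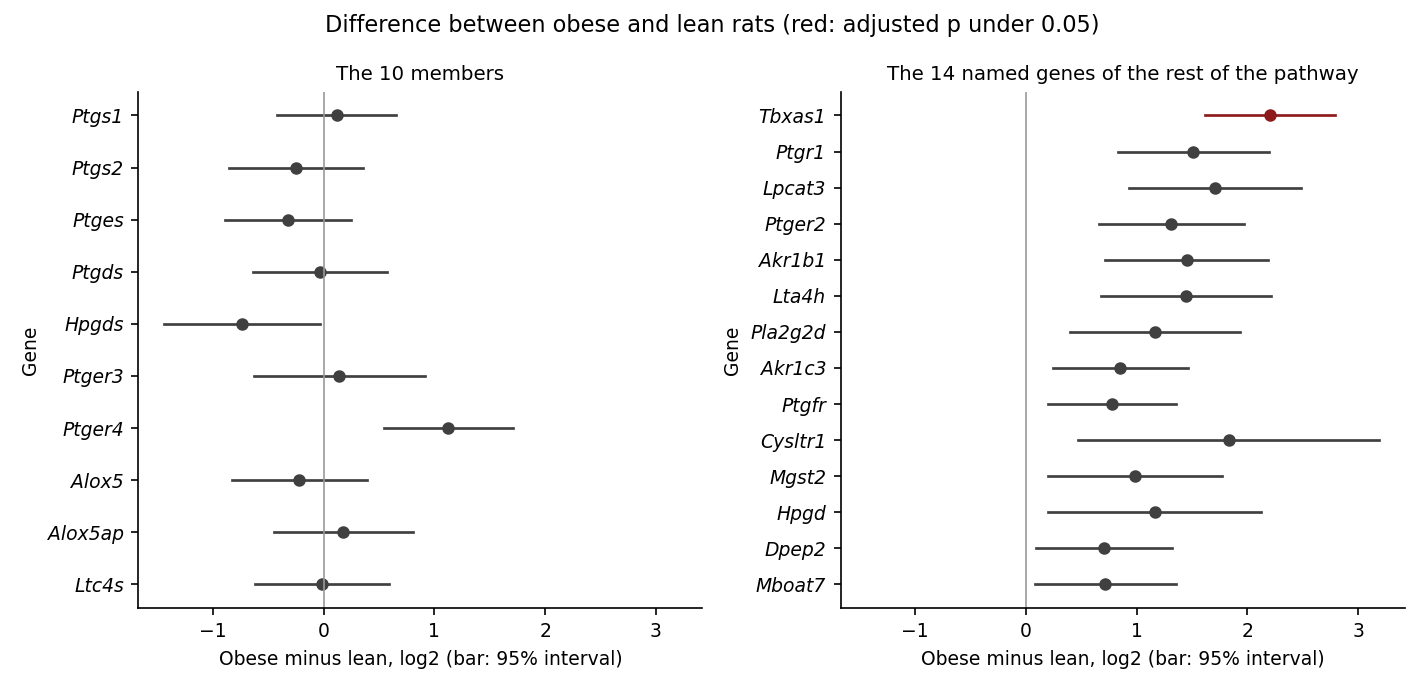
Obese minus lean difference (x axis, log2) with its 95% interval from limma for the 10 members (left) and for 14 genes of the rest of the pathway ordered by p (right), with red for an adjusted p under 0.05. On the left, intervals other than those of Ptger4 and Hpgds span 0, and on the right Tbxas1, at 2.20, is the gene in red.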

How the data were processed

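Total RNA of retroperitoneal fat was amplified and hybridised to Affymetrix Rat Gene ST arrays, 1 per rat, per the labels' protocols. The authors deposited 1 linear intensity per row and array, made with RMA per the submitters' processing notes. The genome build and software are not given in the sources used. RMA usually includes quantile normalization, but the deposited arrays differed in their interquartile range of log2 values (2.24 to 2.77), so whether that step was applied is not settled.

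Intensities (median 39.9 to 44.5 per array) were taken to log2 with no pseudocount and no filter. Of 29214 rows, 15310 had 1 symbol in the platform annotation, and the row with the highest mean was kept per gene (14506 genes). Differences between obese and lean arrays came from limma 3.58.1 under R 4.3.3 (lmFit, eBayes with trend, no covariates), adjusted by Benjamini-Hochberg over all genes at 0.05. Intervals are 95% intervals of this fit. The procedure was tested on simulated data. Promoter windows came from RefSeq (GRCr8), matched by gene ID. Alternatives were other normalizations, variance models, filters and row rules, a rat-number block and each rat left out.

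The members, lists and tests were chosen with earlier results of these data known. Further pathway genes named are those passing the test, then those at an unadjusted p under 0.05, up to 14. Others in that list (Pla2g4a, Plaat3, Ptges2, Ptges3, Ptgis, Abcc4, Ptger1, Ptgir, Tbxa2r, Ptgdr2, Ltb4r, Ptgr2, Slco2a1, Akr1b7 and Alox15) were named after their values were seen. So were the single cell type markers. Ptgdr, Pla2g4b and Mgst3 had no row of their own and were not analysed here.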

Additional observations from a re-analysis of the deposited data

How the results depend on the processing

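The count of 0 members called held under all 13 alternatives, and Tbxas1 was called under each. Over all genes the count of 122 became 75 with quantile normalization, 262 with a robust variance model, 185 over all rows of the table, and 268 to 1081 with a rat left out. The count of 1 called gene in the rest of the pathway became 4 with the robust model (Ptgr1, Lpcat3 and Ptger2 added) and 2 to 9 with a rat left out. Without a lean rat the spread comes from the obese rats alone, and a lone rat is assumed to vary like the other group. Rats of the same number did not deviate together (r = 0.020 across 14506 genes), and they share only a number. With the rat number as a replicate block 327 genes were called over all genes, and 6 in the rest of the pathway. The members' median of -0.02 was 0.075 with median centring and -0.21 to 0.15 with a rat left out. Quantile normalization turned the sign of Ptgds (0.15), Ptger3 (-0.027), Ltc4s (0.032), Abcc4 (-0.017), Akr1b7 (0.11) and Adipoq (-0.053). Median centring turned that of Ptgds (0.066), Ltc4s (0.083), Akr1b7 (0.011) and Cd163 (0.045). With a rat left out signs turned for Ptgs2 (-0.53 to 0.034), Ptgds (-0.25 to 0.19), Ptger3 (-0.19 to 0.47), Ltc4s (-0.25 to 0.22), Ptgdr2 (-0.064 to 0.37), Abcc4 (-0.23 to 0.51), Ptges3 (-0.13 to 0.49), Ptgis (-1.08 to 0.37), Akr1b7 (-0.45 to 0.28), Cd163 (-0.41 to 0.30) and C1qa (-0.092 to 0.62). The causes were not tested. Removing the dimmest 25% of genes left out Ptgds and Akr1b7. Array signal near the floor limits what can be read from Ptgs2 and Ptgds.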
